A study of Canis lupus familiaris with 2 samples.

Results

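Müller glia were taken from single cells of the neuroretina of 2 dogs, N350 and N354, chosen by the measured UMIs of marker genes. The gate took cells with at least 200 detected genes in which at least 4 of the 6 genes *RLBP1*, *GLUL*, *RGR*, *SFRP2*, *SLC14A1* and *DAPL1* had a UMI, the unique molecular identifier that marks 1 captured mRNA molecule. The summed UMIs of these 6 genes also had to exceed those of the 4 rod genes *GNAT1*, *GNGT1*, *SAG* and *PDE6G*, and fewer than 3 of the 4 genes *WFDC2*, *FGG*, *CAPS* and *RAMP1* could be detected. It found 1992 Müller glia among 13282 cells, 1414 of 8895 in N350 and 578 of 4387 in N354. Both dogs were male, normal or wild-type in genotype and 40 weeks of age. The labels give no treatment, so the study holds 1 group of 2 animals and no contrast between conditions. The tissue was dissociated with trypsin and a neural tissue kit and captured in droplets with a 3' assay, in which each mRNA is counted once and levels are therefore not divided by gene length. N350 gave 24030707 UMIs and N354 gave 9711202. The libraries shared 6 cell barcodes, and none of these was a Müller cell in both.

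Müller glia span the neuroretina from its inner to its outer limiting membrane and are its main supporting cells. They clear glutamate and turn it into glutamine, carry potassium, water and bicarbonate away from active neurons, bind retinoids that cones use to rebuild their visual pigment, and hold a reserve of metals and antioxidants. Many of the genes behind these roles serve as markers of the cell, and after injury Müller glia are known to raise intermediate filament proteins such as *GFAP*.

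Müller glia were 15.9% of the cells of N350 (exact binomial 95% interval 15.1% to 16.7%) and 13.2% of those of N354 (12.2% to 14.2%). They held 35.9% and 36.8% of all UMIs. The median Müller cell had 4516 UMIs and 1792 genes in N350, and 5664 UMIs and 1960.5 genes in N354, against 1166 and 1092 UMIs in all other cells. All intervals given here cover counting error only, and neither the difference between animals nor the choice of the gate is part of them. Of the Müller glia, 680 in N350 and 245 in N354 had all 6 gate genes, and 297 and 139 had exactly 4. Those just inside the threshold were shallow, with a median of 1052 UMIs in N350 and 1664 in N354. Another 289 cells of N350 and 47 of N354 fell just outside it with 3 of the genes, at medians of 826 and 866 UMIs. A further 190 and 33 cells had at least 4 gate genes but did not exceed the rod genes, and 43 and 7 had at least 3 of the genes of the other glia.

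The marker genes fitted the name in both dogs, but since 6 of them chose the cells, their levels are a description and were not tested. *SFRP2*, a secreted WNT antagonist, stood at 409.6 UMIs per 10000 UMIs in N350 and 410.1 in N354 (Poisson 95% intervals 408 to 411 and 408 to 412), against 17.6 and 7.79 in all other cells. *GLUL*, the enzyme that makes glutamine from glutamate, had a level of 85.0 in N350 and 123 in N354, against 4.27 and 3.79. *RLBP1*, which codes for the retinaldehyde binding protein CRALBP, had a level of 13.8 and 18.2, against 0.825 and 0.621. The levels of Müller glia lay above those of other cells in each dog for these 3 genes, by folds between 14.99 and 52.0. A fold is the ratio of 2 levels after 0.1 UMIs per 10000 was added to each, which keeps low genes near 1. *DAPL1*, a gene known from the retinal pigment epithelium, had a level of 10.9 and 18.1 against 0.564 and 0.647. *SLC14A1*, a urea transporter, had a level of 3.70 and 2.78 against 0.0872 and 0.0343. The markers outside the gate behaved alike, with *SFRP1* at 32.8 and 30.7 against 1.52 and 0.747, and the lipid carrier *APOE* at 20.3 and 17.4 against 1.998 and 0.879.

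*RGR*, a retinal opsin that isomerises retinaldehyde, was the marker that differed most between the dogs, with a level of 19.6 in Müller glia of N350 and 1.81 in those of N354. Other cells differed in the same way, at 1.14 and 0.0670. The dogs were counted on lists of 34981 and 19947 genes that share 15236 names, so for *RGR*, as for every difference in level between N350 and N354, the animal and the gene annotation cannot be told apart. Contrasts between cell classes are made within each dog and keep to 1 annotation.

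**Figure D1:**
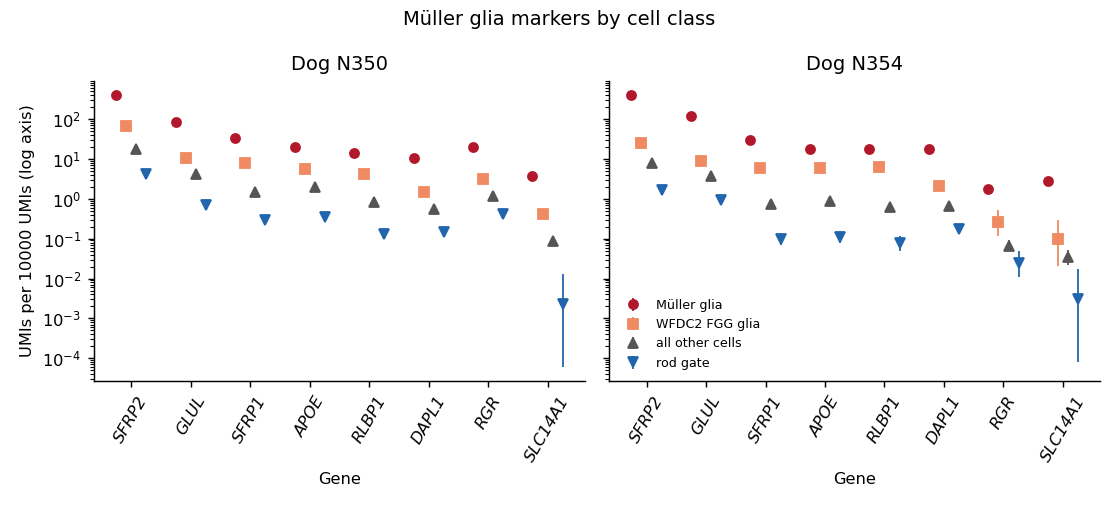
Levels of the 6 gate genes and of *SFRP1* and *APOE* in UMIs per 10000 UMIs (log axis) in 4 cell classes of each dog, with exact Poisson 95% intervals as bars. Müller glia (circles) lie above *WFDC2* *FGG* glia, all other cells and the rod gate for all 8 genes, and the level of *RGR* is lower in each class of N354 than in the same class of N350.

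The share of Müller glia with a UMI of a marker depended on depth, so cells were also thinned to 1000 UMIs, which left out 195 shallower Müller glia of N350 and 50 of N354. At that depth *GLUL* was found in 98.3% of Müller glia of N350 and 99.7% of those of N354, and in 5.82% and 6.96% of the cells of a rod gate. Without thinning it was found in 99.5% and 100% of Müller glia. For *RLBP1* the thinned shares were 71.8% and 82.6% of Müller glia, against 1.19% and 0.685% of rods, and the unthinned ones were 92.1% and 98.6% of Müller glia. *SLC14A1* was found in 23.7% and 23.1% of Müller glia at that depth, against 0.0419% and 0.0628% of rods. Without thinning, *SLC14A1* was found in 52.5% of Müller glia of N350 and 63.5% of those of N354. The rod gate admitted only cells with fewer than 2 of the 6 Müller gate genes, so the shares of these 3 genes in rods are limited by the choice of cells and are no independent background. Rods had median depths of 1099 UMIs in N350 and 1008 in N354.

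Across the 8255 genes named in both annotations with at least 50 UMIs in each dog, 524 genes (6.35%) were at least 2-fold higher in Müller glia than in all other cells of the same dog, in both dogs. Another 1251 genes (15.2%) were at least 2-fold lower in both. The gate uses the same contrast, so these counts describe the cells and were not tested. The median log2 fold over all tested genes was -0.49 in N350 and -0.48 in N354. With that median set to 0 in each dog, 924 genes (11.2%) were higher and 509 (6.17%) lower, so the balance of directions depends on the scaling. The gene groups below are to be read against the median, and their counts relative to the median gene against these shares. The log2 folds of the dogs followed each other across genes with a Spearman rho of 0.89 over the 8255 genes, which share their libraries and are not independent replicates.

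**Figure D2:**
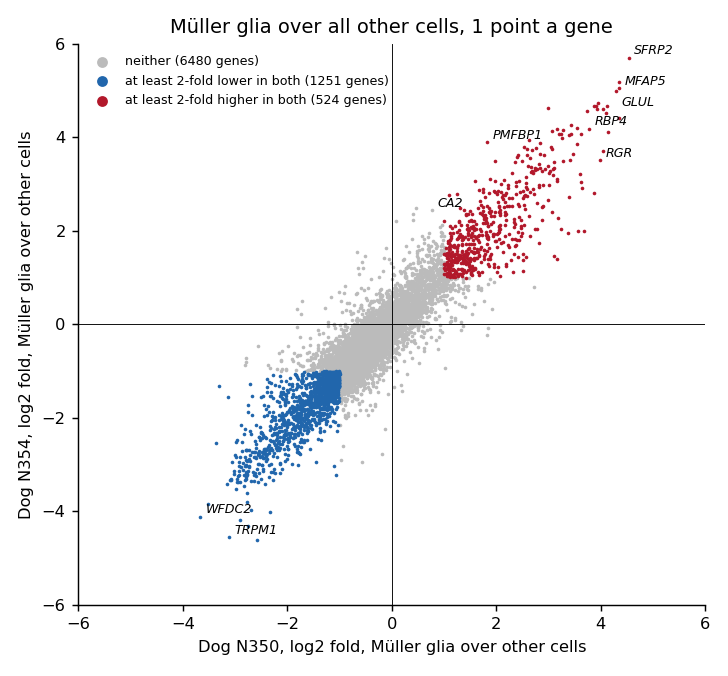
Log2 fold of Müller glia over all other cells in N350 (horizontal) and N354 (vertical), 1 point for each of 8255 genes. Red points are the 524 genes at least 2-fold higher and blue points the 1251 genes at least 2-fold lower in both dogs, and the cloud follows the diagonal with its centre below 0.

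By the lower of the levels in the 2 dogs, the 10 most abundant transcripts of Müller glia were *SFRP2*, *RBP4*, *VIM* and *GLUL* beside 6 mitochondrial genes. Within single dogs the order differed, and *FOS* in N350 (103) and *OTOS* in N354 (97.6) stood above some of the 10. *RBP4*, the carrier of retinol in plasma, had a level of 410.5 in N350 and 478 in N354, against 29.8 and 26.2 in other cells. *VIM*, the intermediate filament vimentin, had a level of 170.4 and 295, against 15.7 and 15.2. The mitochondrial genes *ATP6*, *COX1*, *COX2*, *COX3*, *CYTB* and *ND4* were the others of the 10, and none of them was 2-fold apart from other cells in either direction. Outside the gene lists, *MFAP5*, a protein of elastic microfibrils, stood out with a level of 12.5 and 13.2 against 0.517 and 0.301. *OTOS*, which codes for otospiralin, a protein known from the inner ear, had a level of 50.1 and 97.6 against 3.15 and 3.58. The other genes chosen for their fold were *HSD17B2*, an enzyme that inactivates sex steroids, *OLFM2*, *C9H17orf67*, *F3*, which codes for tissue factor, *TNFAIP6*, *GULP1*, *RHCG*, *NT5E*, *TMEM71*, *ADAMTS1*, *ADAMTS19*, *MFAP2* and *PON2*. Their folds lay between 9.39 and 25.4. *MFAP2* codes for another microfibril protein, and *ADAMTS1* and *ADAMTS19* for secreted proteases of the matrix.

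Of 13 tested genes of retinoid handling, 5 were at least 2-fold higher in both dogs and 4 lower, with a median log2 fold of -0.36 in N350 and 0.02 in N354. Relative to the median gene, 5 were higher and 2 lower. Higher were *RLBP1* and *RGR*, which belong to the gate, and *RBP4*, *RDH10* and *CYP26A1*. *RDH10*, a retinol dehydrogenase, had a level of 2.42 in N350 and 1.27 in N354 against 0.182 and 0.0621. *CYP26A1*, which degrades retinoic acid, had a level of 0.610 and 0.704 against 0.0241 and 0.0114. A UMI of it was found in 7.99% and 11.9% of Müller glia, or in 3.78% and 5.36% after thinning, against 0.0421% and 0.0660% of rods. Among the lower genes were *STRA6*, the receptor for *RBP4*, *DHRS3* and the photoreceptor retinol dehydrogenase *RDH12*, the last at 0.336 and 0.0309 against 2.95 and 0.518. *CRABP1*, a binding protein for retinoic acid, was listed only in N350, where it had a level of 13.1 against 3.62 in other cells. *RPE65* and *LRAT*, which define the visual cycle of the pigment epithelium, did not reach the limit of 50 UMIs in both dogs.

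For the uptake of transmitters, 4 of 15 genes were higher and 4 lower, or 5 and 3 relative to the median gene. The higher genes include *GLUL*, which belongs to the gate. *SLC1A3*, the glutamate transporter of glia (GLAST), had a level of 5.39 in N350 and 10.9 in N354, against 0.215 and 0.333. *SLC6A11*, a GABA transporter, had a level of 0.906 and 0.401 against 0.228 and 0.0376, and *ABAT*, which breaks GABA down, 0.841 and 1.20 against 0.333 and 0.201. Among the lower genes were the amino acid transporter *SLC38A1*, the taurine transporter *SLC6A6* and the glycine transporter *SLC6A9*. *SLC1A2*, a second glutamate transporter, was below other cells by less than 2-fold, at 0.675 and 1.41 against 1.41 and 2.79.

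Among 16 genes for potassium, water, urea and bicarbonate, 5 were higher and 4 lower. The balance depended on the scaling, since relative to the median gene 8 were higher, with *KCNJ10*, *DAG1* and *CA2* among them, and 2 lower. *AQP4*, the water channel of glial endfeet, had a level of 1.44 in N350 and 0.662 in N354 against 0.266 and 0.0507. *KCNJ10*, which codes for the potassium channel Kir4.1, had a level of 1.18 and 0.115 against 0.230 and 0.0147. Its fold was 3.89 in N350 and 1.87 in N354, so it was not among the genes past 2-fold in both. The other higher genes included *SLC14A1*, which belongs to the gate, and *CA14*, a membrane-bound carbonic anhydrase. The soluble carbonic anhydrase *CA2* had a level of 16.9 and 47.0 against 9.87 and 8.58, a fold of 1.70 in N350 and 5.43 in N354. *DMD*, *ATP1B2* and the bicarbonate carriers *SLC4A3* and *SLC4A4* were lower, but *ATP1B2* and *SLC4A3* were not 2-fold lower relative to the median gene, and against the rod gate alone *SLC4A4* turned its direction in a dog. *DMD* had a level of 0.731 and 1.26 against 4.44 and 8.66.

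Of 21 secreted WNT antagonists and matrix genes, 12 were higher and 6 lower (14 and 4 relative to the median gene), and the median log2 fold was 1.52 in N350 and 1.95 in N354. Beside *SFRP1* and *SFRP2*, of which *SFRP2* belongs to the gate, the WNT antagonists *FRZB* and *DKK3* were higher. *DKK3* had a level of 2.72 in N350 and 6.51 in N354 against 0.253 and 0.529. The collagen genes *COL2A1* and *COL9A1*, whose products are known from cartilage and the vitreous, were higher as well. *COL2A1* had a level of 1.55 and 2.63 against 0.0800 and 0.0621. *EFEMP1*, a fibulin of the matrix, had a level of 6.89 and 1.67 against 0.473 and 0.0899, and *TIMP3*, an inhibitor of matrix proteases, 1.45 and 2.09 against 0.164 and 0.222. *SPARC*, *SPARCL1*, *TIMP2* and *CCN1* completed the higher genes. Lower were *TNC*, *FBLN1*, *PTN* and the insulin-like growth factor binding proteins *IGFBP2*, *IGFBP5* and *IGFBP7*, but *TNC* and *FBLN1* were not 2-fold lower relative to the median gene. *FBLN1* was low elsewhere too, at 0.0292 and 0.00344 in other cells without *WFDC2* *FGG* glia, the second glial class described further on, against 0.0104 and 0.00281 in Müller glia. *IGFBP2* had 90 UMIs in all Müller glia of N350 and 1 in those of N354, against a level of 2.25 and 1.37 in other cells.

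In lipid transport and synthesis 3 of 16 genes were higher, *APOE*, *CLU* and *DBI*, and 5 were lower. The balance turned with the scaling, since relative to the median gene 7 were higher, with *FADS1*, *FADS2*, *PTGDS* and *ACSL3* added, and 3 lower. *CLU*, the secreted chaperone clusterin, had a level of 45.6 in N350 and 37.4 in N354 against 6.74 and 3.72. *DBI*, which binds acyl-CoA, had a level of 32.2 and 57.8 against 2.90 and 3.33. Among the lower genes were *APOA1*, *APOC1* and the lipid exporters *ABCA1* and *ABCG1*. *ABCG1* was not 2-fold lower relative to the median gene, and *APOA1* turned its direction in a dog against the rod gate alone. The apolipoproteins were therefore split, since *APOE* lay above the other cells, and *APOC1* below them at 2.94 and 4.81 against 17.6 and 33.7.

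In the list for metals, antioxidants and iron, 9 of 17 genes were higher and none was lower. The metallothionein *MT2A* had a level of 37.8 in N350 and 30.9 in N354 against 11.6 and 5.86. *GSTP1*, a glutathione transferase, had a level of 39.6 and 34.8 against 7.52 and 4.93. *GPX3*, a secreted glutathione peroxidase, had a level of 5.28 and 8.62 against 0.554 and 0.526. *CP*, the copper-carrying ferroxidase ceruloplasmin, and *PRDX6*, *SOD1*, *NQO1*, *SELENOP* and *SELENOW* were the other higher genes, with folds from 2.17 for *SELENOW* in N350 to 13.9 for *CP* in N354. Transferrin (*TF*) was listed only in N354, where it had a level of 23.2 against 0.574. Metallothionein 3 was named differently in the dogs and had a level of 5.17 in N350 (*MT-III*) and 5.14 in N354 (*MT3*), against 2.76 and 2.58 in other cells.

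Of 22 transcription factors and Notch pathway genes, 10 were higher and 2 lower (16 and 2 relative to the median gene), with a median log2 fold of 1.34 in both dogs. *LHX2* and *RAX*, homeobox genes of the eye field that stay on in Müller glia, had levels of 2.88 in N350 and 3.76 in N354 and of 1.21 and 2.40, against 0.453 and 0.361 and against 0.193 and 0.391. The nuclear factors *NFIA*, *NFIB* and *NFIX* were all higher, *NFIA* not by 2-fold against other cells without the rod gate, as were *NOTCH1*, *SOX6*, *ID1*, *TSC22D4* and *ZFP36L1*. *ZFP36L1*, which binds mRNA and promotes its decay, had a level of 19.6 in N350 and 0.252 in N354, and the same gap was seen in other cells at 2.19 and 0.0278. *SOX2*, *SOX9* and *HES1*, an effector of Notch signalling, were listed only in N350 and had levels of 3.74, 0.397 and 25.2 there, against 0.520, 0.0970 and 3.12. The photoreceptor and bipolar cell factor *OTX2* and the Notch ligand *JAG1* were lower.

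Growth factors and receptors had 11 of 20 genes higher and none lower. Of the 11, *VEGFA*, *FGF1*, *TGFB2*, *BMP7*, *FGFR1* and *EGFR* were not 2-fold higher in both dogs against other cells without the rod gate. *PDGFRA*, a receptor for platelet-derived growth factor, had a level of 4.004 in N350 and 1.58 in N354 against 0.148 and 0.0278. *LGR4*, a receptor for R-spondins that strengthens WNT signalling, had a level of 3.28 and 3.14 against 0.486 and 0.456. Ligands among the higher genes were *VEGFA*, *FGF1*, *FGF9*, *TGFB2* and *BMP7*, with folds between 2.01 and 4.66. *VEGFA*, the vascular endothelial growth factor, had a level of 1.03 and 2.17 against 0.433 and 0.917. *EGFR*, *FGFR1*, *GFRA1* and the signal inhibitor *SMAD6* were the remaining ones.

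The receptors for VEGF were also found. *KDR* (VEGFR2) had a level of 2.13 in N350 and 7.12 in N354 against 0.165 and 0.307 in other cells, and *FLT1* (VEGFR1) had 2.33 and 3.71 against 0.277 and 0.188. Both had been placed in the list of endothelial markers. *KDR* was found in 50.2% and 82.2% of Müller glia, and after thinning in 16.5% and 48.4%, against 0.201% and 0.187% of rods. The other endothelial genes were near 0, since *PECAM1* had no UMI in Müller glia of either dog, where 3 counts, the limit that a count of 0 allows, would be a level of 0.00348 and 0.00842, and *CLDN5* stood at 0.0673 and 0.00281. *VWF* was lower than in other cells in both dogs, at 0.0221 and 0.0785 against 0.0976 and 0.583.

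Intermediate filament and reactive glia genes were split, with 6 of 17 higher and 4 lower, or 9 and 3 relative to the median gene. Beside *VIM*, the higher genes were *NES* (nestin), *SYNM* (synemin), *CRYAB*, *S100A1* and the hyaluronan receptor *CD44*. *CRYAB*, the small heat shock protein αB-crystallin, had a level of 39.1 in N350 and 29.9 in N354 against 3.27 and 1.96. *GFAP* was lower, with 13 UMIs in all Müller glia of N350 and 4 in those of N354, levels of 0.0151 and 0.0112 against 0.296 and 0.348. *ANXA1*, *HSPB1* and *LIFR* were lower too, but *HSPB1* turned its direction in a dog against the rod gate alone. *LIFR* was not 2-fold lower in both dogs relative to the median gene or against other cells without the rod gate. Most *GFAP* UMIs of the other cells came from *WFDC2* *FGG* glia. Without these glia the level of *GFAP* in other cells was 0.0606 in N350 and 0.0258 in N354, still above that of Müller glia. These levels are below the 0.1 added to each level, so the folds (0.717 and 0.884) could not have reached 2-fold. *ANXA1* stood there at 0.0827 and 0.0241 against 0.0279 and 0.00561 in Müller glia, and its fold could not have reached 2-fold for the same reason. *VIM* stood there at 8.73 and 7.69, and its folds were 19.3 and 37.9.

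In glycolysis, lactate and glycogen, 4 of 23 genes were higher and 8 lower. *SLC2A1*, the glucose transporter GLUT1, had a level of 5.44 in N350 and 7.34 in N354 against 1.24 and 1.31, and *SLC2A3* and the hexokinase gene *HKDC1* were higher with it. *ENO1* was higher at 49.7 and 50.1 against 24.6 and 17.5, whereas *ENO2*, the enolase of neurons, was lower at 2.22 and 0.508 against 9.47 and 2.92. *ENO1* was not 2-fold higher in both dogs against other cells without the rod gate or without *WFDC2* *FGG* glia. The hexokinases *HK1* and *HK2*, *GPI*, *PFKM*, *PFKP*, *ALDOC* and *PGK1* were the other lower genes. Among cells with at most 5% mitochondrial UMIs, *GPI*, *PFKM* and *PGK1* turned their direction in a dog. With the median gene set to a fold of 1, the list had 6 higher and 5 lower. In the list for serine, creatine and one-carbon units, *PSAT1*, an enzyme of serine synthesis, and the serine transporter *SLC1A4* were higher, 2 of 10 genes, and none was lower.

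For adhesion and polarity, 8 of 21 genes were higher and 2 lower, or 13 and 2 relative to the median gene. *CRB1*, a polarity protein of the outer limiting membrane whose variants cause retinal dystrophy in people, had a level of 1.31 in N350 and 2.72 in N354 against 0.124 and 0.173. *CDH2* and *CTNNA1*, parts of adherens junctions, were higher, as were *EZR*, which links membrane and actin in microvilli, *CD9*, *LGALS3*, *GPM6A* and *GPM6B*. *EZR* had a level of 4.16 and 5.66 against 0.696 and 0.863. The lower genes were *PROM1*, of photoreceptor discs, and *RTN1*, which turned its direction in a dog against the rod gate alone.

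Many immediate early genes were higher in Müller glia, at levels that differed between the dogs. In the list with heat shock genes 11 of 22 were higher and 5 lower (13 and 3 relative to the median gene), and the median log2 fold was 1.59 in N350 and 1.45 in N354. *FOS*, a transcription factor induced within minutes of a stimulus, had a level of 103 in N350 and 30.8 in N354 against 19.7 and 3.62. *GADD45B*, a gene of the stress response, had a level of 23.5 and 13.04 against 2.72 and 0.881, *ZFP36* 25.9 and 4.89 against 3.47 and 0.412, and *NR4A1* 15.2 and 5.49 against 2.04 and 0.345. *FOSB*, *JUNB*, *EGR1*, *ATF3*, *IER2*, *BTG2* and *DUSP1* were the other higher genes. The levels of *FOS* were 112 and 39.0 in *WFDC2* *FGG* glia, above those of Müller glia in both dogs, and 7.85 and 1.58 in rods. Lower were *GADD45A*, *GADD45G*, *SGK1* and the heat shock genes *HSP90AA1* and *HSPH1*. Neither heat shock gene was 2-fold lower relative to the median gene, and *HSPH1* turned its direction in a dog among cells with at most 5% mitochondrial UMIs. The cells had been dissociated before capture, and its part in these levels was not tested.

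Of 66 genes in the list for ribosomes and translation, 28 were higher and 2 lower, and the median log2 fold was 0.98 in N350 and 1.01 in N354. *TPT1* had the largest fold among them, with a level of 44.7 and 60.8 against 10.5 and 11.5. The 2 lower genes, *RPS19BP1* and *RPS6KB2*, code for a binding protein and a kinase and not for ribosomal proteins. In the respiratory chain none of 67 genes was higher and 12 were lower, a share near the 15.2% of all genes, with a median log2 fold of -0.68 and -0.62. Only *NDUFA4L2* of the 12 stayed at least 2-fold lower in both dogs once the median fold was set to 1, while 54 of the 66 genes for ribosomes and translation were then higher. The median of that list lay above the median gene, and that of the respiratory chain near it.

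**Figure D3:**
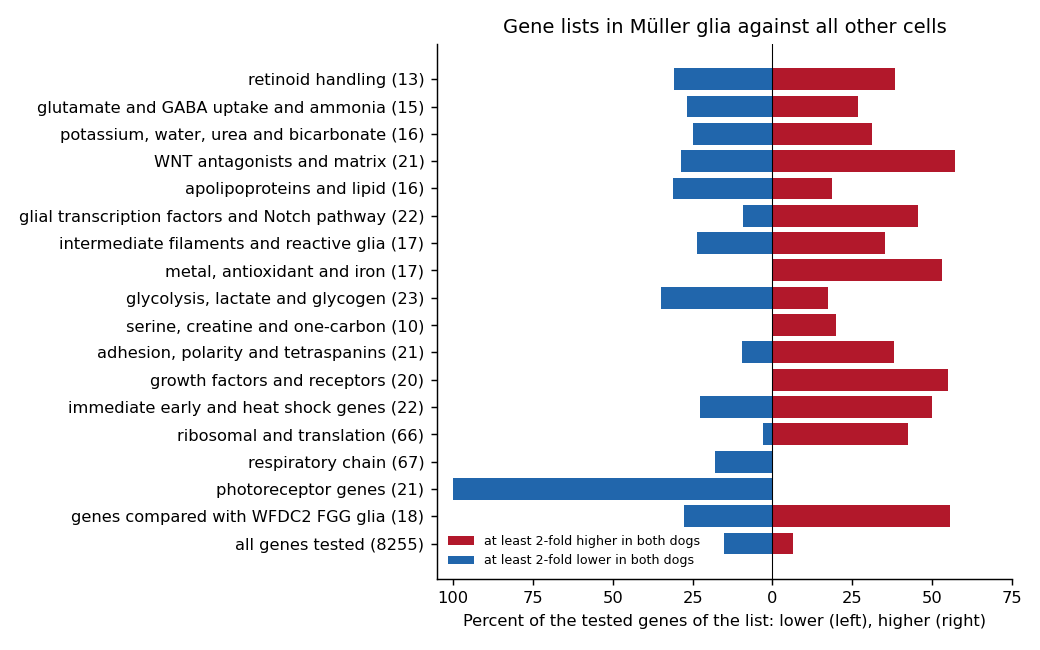
Percent of the tested genes of each list that were at least 2-fold higher (red, right) or lower (blue, left) in Müller glia than in all other cells in both dogs, with the number of tested genes in brackets. Matrix, growth factor and metal lists have more than 50% of their genes on the right, all 21 photoreceptor genes are on the left, and the bottom bar gives 6.35% and 15.2% for all genes.

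The 10 genes with the lowest fold against other cells were *WFDC2*, *IGFBP2*, *RP1*, *TRPM1*, *CRX*, *TULP1*, *RGS9*, *RCVRN*, *PRPH2* and *SRRM3*. *WFDC2*, which the gate also used, was not 2-fold lower in both dogs against other cells without *WFDC2* *FGG* glia (folds of 0.398 and 0.525). Against the rod gate alone, *WFDC2* and *TRPM1* turned their direction in a dog. *TRPM1*, the channel of ON bipolar cells, had a level of 0.0801 in N350 and 0.157 in N354 against 1.46 and 5.96. All 21 photoreceptor genes were lower, and 4 of them, *GNAT1*, *GNGT1*, *SAG* and *PDE6G*, belong to the gate. The cone genes *ARR3* and *PDE6H* turned their direction in a dog against the rod gate alone. *PDE6H* also did so among cells with at most 5% mitochondrial UMIs. The summed level of the 21 genes in Müller glia was 50.3 in N350 and 76.2 in N354, against 389 and 717 in other cells. *RCVRN*, which codes for recoverin, had a level of 7.20 and 11.7 against 59.5 and 109, and *SAG* (rod arrestin) 5.76 and 7.24 against 45.5 and 76.5. Most of the photoreceptor genes had folds between 0.0939 and 0.173, so their RNA was present in Müller glia at a like fraction of its level elsewhere. The exceptions by fold were *CNGB1* in N350 and *OPN1LW* in both dogs, whose levels in other cells were at most 0.655. At such levels the 0.1 added to each raises the fold. *CNGB1* stood at 0.0546 against 0.516 in N350, and *OPN1LW* at 0.0313 and 0.0870 against 0.228 and 0.655.

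Markers of neurons, summed over those that each dog lists, were below their level in other cells. Those of rods summed to 36.7 in N350 and 49.0 in N354 against 283 and 453, and those of cones to 5.61 and 5.997 against 44.6 and 58.6. Bipolar cell markers summed to 2.40 and 3.28 against 8.84 and 19.5. Horizontal cell markers summed to 1.21 and 0.0309 against 9.61 and 3.402, and amacrine cell markers to 0.603 and 0.135 against 5.41 and 2.02. The 9 astrocyte markers summed to 2.06 in N350 and 3.69 in N354 against 8.62 and 5.84. They were led by *RAMP1* at 0.850 and 3.29, above its level in other cells in N354 (1.06), while *PAX2* had no UMI. The summed level of 7 microglia markers was 0.143 in N350 and 0.0337 in N354, against 0.474 and 0.239. The 4 pericyte markers summed to 0.0581 and 0.126 against 0.433 and 0.0507, so they lay above other cells in N354, where *PDGFRB* was the only one with a UMI. Pigment epithelium markers summed to 0.137 and 0.115 against 0.260 and 0.304, with *RDH5* as the most abundant gene and *TYR* and *TTR* at 0 in both dogs. Oligodendrocyte markers, of which N350 lists 3 of 4, summed to 0.128 and 0.202 against 0.0410 and 0.0441, above other cells in both dogs, though *MAG* and *MOG* had no UMI in N354. Markers of cycling cells, of which N354 lists 4 of 5, summed to 0.327 and 0.149 against 1.08 and 0.817, led by *PCNA*. *HBM* and *ALAS2*, the markers of red blood cells that both annotations list, had no UMI. Ganglion cell markers summed to 2.50 in N350, led by *NEFL* at 1.48, and to 0.0813 in N354. Doublets were not removed by the gate. Cells with the 4% highest doublet scores of Scrublet, with all ties at the cut, included 74 Müller glia of N354 (12.8% of them, against 3.91% of other cells). In N350 they included 94 (6.65%, against 4.41%). Without these cells, 8471 of 8895 cells of N350 and 4164 of 4387 of N354 remained, and no named gene past 2-fold turned its direction. The own threshold of Scrublet marked 0 and 0.0912% of cells, so leaving these cells out cannot show what doublets add. The parts of free RNA and of doublets in the photoreceptor RNA of Müller glia were not tested.

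A second class with glial genes, called *WFDC2* *FGG* glia after the genes that chose it, had 221 cells in N350 and 67 in N354, with median depths of 5440 and 4145 UMIs. Of the 8255 genes, 214 (2.59%) were at least 2-fold higher in Müller glia than in these glia in both dogs, and 378 (4.58%) were at least 2-fold lower. The gates chose both classes, so these values are a description too. *RBP4* had a level of 64.5 and 25.997 in these glia, and Müller glia were 6.36-fold and 18.3-fold higher. *GLUL* had a level of 10.9 and 8.83 there, and *SLC1A3* 0.912 and 1.96. *PDGFRA* stood at 4.004 and 1.58 in Müller glia against 0.351 and 0.0332. These 4 genes were all higher in Müller glia in both dogs. *GFAP* stood at 2.77 and 6.57 in *WFDC2* *FGG* glia against 0.0151 and 0.0112 in Müller glia, and *ANXA1* at 2.80 and 6.97 against 0.0279 and 0.00561. *PAX2*, a factor of retinal astrocytes, had no UMI in Müller glia and a level of 0.0822 and 0.0996 in *WFDC2* *FGG* glia.

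Other genes were shared by both glia. *VIM* had a level of 88.6 and 159 in *WFDC2* *FGG* glia, below the 170.4 and 295 of Müller glia by less than 2-fold in each dog. *CLU* had a level of 54.4 and 54.6, and *GSTP1* 39.2 and 43.5, within 2-fold of Müller glia. *AQP4* and *KCNJ10*, known as genes of both cell types, were somewhat higher in *WFDC2* *FGG* glia, *AQP4* at 2.57 and 0.797 and *KCNJ10* at 2.16 and 0.299. *SPARC*, *SERPINE2*, *ID1*, *VEGFA* and *IGFBP5* were at least 2-fold higher in *WFDC2* *FGG* glia in both dogs. Among intermediate filament and reactive glia genes none of 17 was higher in Müller glia and 8 were lower, and among growth factors and receptors 2 of 20 were higher and 5 lower. Lists for WNT antagonists and matrix (4 of 21 higher and 7 lower), lipid (2 of 16 and 5) and metals (1 of 17 and 3) leaned the same way. So did transcription factors and Notch genes (2 of 22 and 4), adhesion (3 of 21 and 4) and serine, creatine and one-carbon units (0 of 10 and 2). Retinoid handling (5 of 13 and 1) and the uptake of transmitters (5 of 15 and 1) went the other way. Potassium, water, urea and bicarbonate had 2 of 16 each way. Glycolysis (1 of 23), immediate early (1 of 22), ribosomal (3 of 66) and respiratory chain genes (2 of 67) had none lower.

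**Figure D4:**
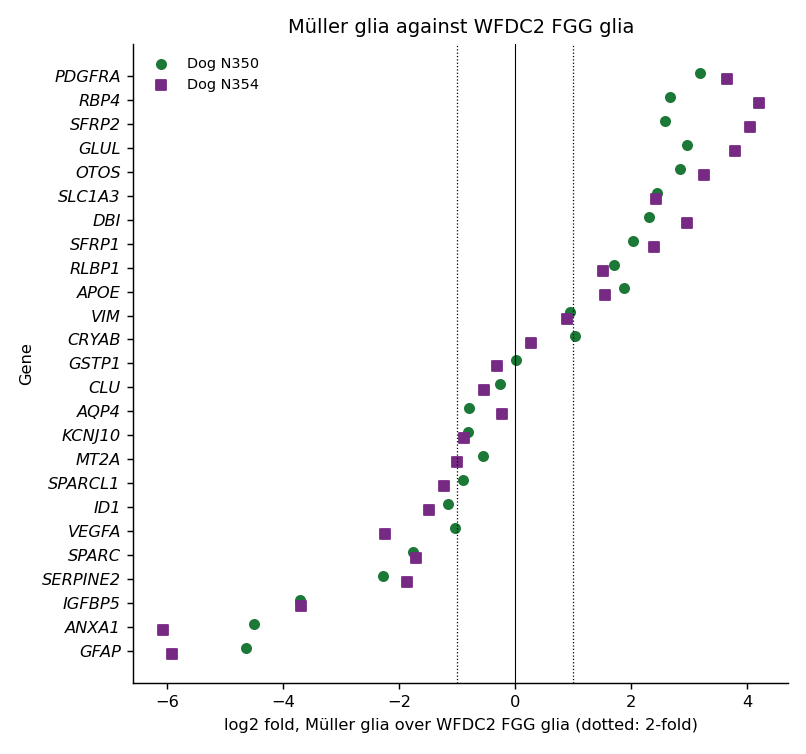
Log2 fold of Müller glia over *WFDC2* *FGG* glia in each dog for 25 genes of the lists and text, chosen after their values were seen. *PDGFRA*, *RBP4*, *SFRP2* and *GLUL* lie to the right in both dogs, *VIM*, *GSTP1* and *CLU* between the dotted lines of 2-fold, and *ANXA1* and *GFAP* farthest to the left.

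Müller glia differed among themselves. Over 1219 cells of N350 and 528 of N354 thinned to 1000 UMIs, the variance of most genes was near their mean, with a median ratio of 1.04 and 1.03 over 1664 genes. The ratio was highest for *PDE6H*, a cone gene, at 10.4 and 14.8. *PDE6H* was at 0 in 72.3% of Müller glia of N350 and 86.0% of those of N354, and reached 291 and 230.0 UMIs per 10000 in single cells. Its variation thus came from few cells with many copies, and the photoreceptor genes *PDC* and *RCVRN* were also among the 10 most variable. Of the genes higher in Müller glia than in other cells, *RBP4* had a ratio of 7.72 and 8.54, *SFRP2* 10.2 and 7.72, and *MT2A* 6.69 and 7.76. *SFRP2* was found in each Müller cell, with an interquartile range of 211 to 495 per 10000 in N350 and of 309 to 488 in N354. *MT2A* ranged from 0 in 12.7% and 20.4% of the cells to 114 and 120 per 10000 at the 95th percentile. *COX1*, *COX2*, *COX3* and *ATP6* filled the other places.

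Some of these genes varied together over the thinned cells, which share a library and a fixed depth. *SFRP2* and *GLUL*, which both belong to the gate that chose the cells, had a Spearman rho of 0.52 in N350 and 0.36 in N354, and *SFRP2* and *SFRP1* 0.42 and 0.40. The immediate early genes *FOS* and *GADD45B* had 0.48 and 0.45, and *FOS* and *MT2A* 0.27 and 0.38. *SFRP2* and *RBP4*, the most abundant pair, had only 0.24 and 0.23. *FOS* and *SFRP2* differed between the dogs, at 0.47 and 0.08.

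Between the dogs, 1213 of the 8255 tested genes (14.7%) differed at least 2-fold within Müller glia, and 1524 (18.5%) within the other cells. In 261 genes (3.16%) the difference in Müller glia had no counterpart of at least 2-fold in the same direction in other cells. Once divided by the fold between dogs in other cells, the largest folds were those of *DCP1B*, *IFT27*, *NBL1*, *CALB1* and *EML6* toward N350. For *DCP1B* and *IFT27* this ratio came from the other cells, where the levels were 0.133 in N350 and 2.79 in N354 and 0.681 and 4.08, while in Müller glia both were lower in N350, at 0.0581 against 0.278 and at 0.612 against 0.791. *NBL1* differed by less than 2-fold within Müller glia, at 0.683 and 0.309. The largest folds toward N354 were those of *RAMP1*, *DNAJC6*, *CSNK1G1*, *ABCA5* and *PMFBP1*. *RAMP1*, a receptor subunit for calcitonin gene-related peptide and 1 of the gate genes of the other glia, had a level of 0.850 in Müller glia of N350 and 3.29 in those of N354, and of 1.41 and 1.06 in other cells. *ABCA5*, a lipid transporter, had a level of 0.338 and 6.67 in Müller glia against 0.315 and 1.37 in other cells. *CALB1*, a calcium-binding protein of horizontal cells, had 1.08 and 0.0196 against 6.97 and 2.83. With 1 animal and 1 annotation on each side these values have no replicate check.

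A limit of 5% on mitochondrial RNA, of the kind the study's methods apply, left most Müller glia out where all 13 mitochondrial protein genes were counted, and kept most where only names with the prefix MT- were. These 13 genes took a median of 7.11% of the UMIs of a Müller cell in N350 and 10.3% in N354, against 6.08% and 7.23% in all other cells. At most 5% was found in 260 Müller glia of N350 (18.4%) and 25 of N354 (4.33%), against 39.9% and 35.1% of other cells. A limit on names that start with MT- acted differently in the dogs, because those names are 12 mitochondrial genes in N354 and only metallothionein 3 (*MT-III*) in N350. Under less than 5% of UMIs on such names all 1414 Müller glia of N350 remained, and 25 of the 578 of N354. In all, the limit on such names left 10264 cells and 1439 of 1992 Müller glia (72.2%), and the limit on the 13 genes left 4608 cells and 285 Müller glia (14.3%). The former total, with all 8895 cells of N350 in it, equals the number of cells retained in the study's methods.

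**Figure D5:**
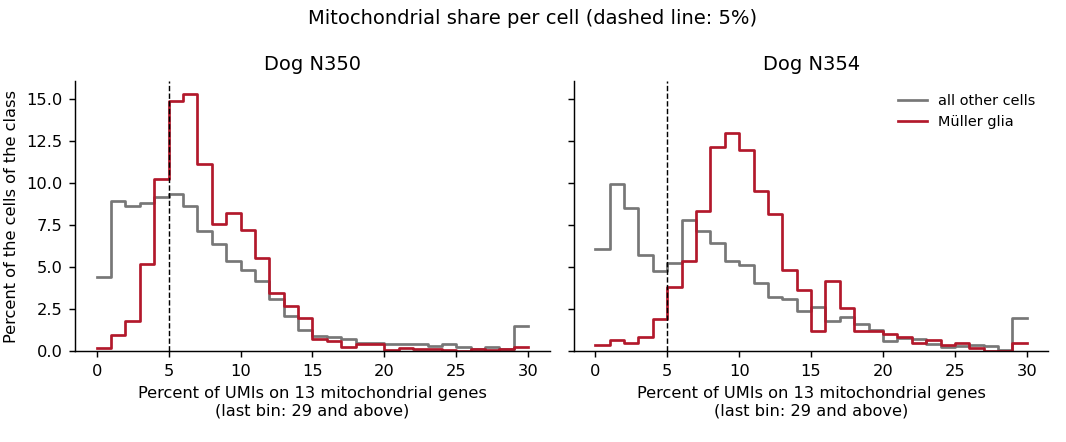
Percent of the cells of a class (vertical) by the percent of their UMIs on 13 mitochondrial protein genes (horizontal, bins of 1%), for Müller glia in red and all other cells in grey. Most Müller glia lie right of the dashed line at 5% in both dogs, and those of N354 lie farther right than those of N350, at medians of 10.3% and 7.11%.

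Since this share was not part of the gate, it allowed the only test within Müller glia, between the cells above and below the median share of each dog, called high-share and low-share Müller glia. It still varied with the number of gate genes. In N350 its median was 9.83% in Müller glia with exactly 4 gate genes and 5.88% in those with all 6, and in N354 11.8% and 9.40%. UMIs were summed per dog and set of cells, without the 13 mitochondrial genes, and compared with the dog as a block. At a Benjamini-Hochberg adjusted p of 0.05 in the quasi-likelihood test of edgeR, 149 of 9101 genes (1.64%) were higher and 45 (0.494%) lower in high-share Müller glia. DESeq2 called 8 (0.0879%) and 0, and edgeR without the block called 0 and 0, so these calls rest on the tool and on the pairing. The 4 sums leave 1 residual degree of freedom, and 31 of the 149 higher and 9 of the 45 lower genes had under 10 UMIs in a dog. At an unadjusted p under 0.05 there were 1147 genes by edgeR, 136 by DESeq2 and 5 without the block. High-share Müller glia were also shallower, with median depths of 2445 against 8511 UMIs in N350 and of 4678 against 6566 in N354, and 4 rod genes took 0.314% against 0.140% of their UMIs in N350 and 0.385% against 0.353% in N354. The parts of depth and of RNA from other cells in the calls were not tested.

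Markers of neurons were among the higher genes by edgeR, 4 of 7 tested for bipolar cells, 4 of 5 for ganglion cells, the 1 tested for horizontal cells, 2 of 7 for cones and 0 of 5 for amacrine cells, and none was lower. For rods 7 of 9 were higher, but 4 of the 7 belong to the gate. *NEFL*, a neurofilament gene, had a level of 5.73 in high-share and 0.307 in low-share Müller glia of N350, but 3 UMIs and 1 UMI in N354 (log2 fold change 4.17 ± 0.25, SE, edgeR adjusted p = 1.5e-58, DESeq2 adjusted p = 0.25). Its test therefore rests on N350. *NEFM*, of the same family, had levels of 1.63 and 0.151 in N350 and 6 and 3 UMIs in N354, and was called by both tools, with a DESeq2 adjusted p of 0.0024. The other 8 of the 10 genes with the largest rise were *CALB1*, *STMN2*, *CHGB*, *TRPM1*, *PCP4*, *WFDC1*, *GABRR2* and *FGF12*, and *FGF12* had no UMI in N354. Of 21 photoreceptor genes, 11 were higher and none lower by edgeR, and 4 of the 11 belong to the gate. The 8 genes that DESeq2 called were *NEFM*, *CHGB*, *PCP2*, *TAGLN3*, *GNG13*, *CPLX3*, *SNCB* and *TMSB10*. Of these only *NEFM* and *PCP2* were in the marker lists, for ganglion and for bipolar cells.

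Among the immediate early and heat shock genes, 6 of 28 were lower in high-share Müller glia by edgeR and none by DESeq2, namely *EGR2*, *ATF3*, *BTG2*, *DUSP6*, *CEBPB* and *KLF4*. *KLF4* had a level of 0.232 against 0.691 in N350 and no UMI in N354. *EGR2* went opposite ways, with 4 UMIs in high-share and 3 in low-share Müller glia of N354. *DUSP6* had 1 and 4 UMIs there, and *CEBPB* 3 and 10. The other genes with the largest fall were *CARTPT*, *HAS1*, which makes hyaluronan, *UBALD1*, *DLL4*, *H2BC4*, *EGF* and *EPHA3*. *CARTPT*, a neuropeptide gene, went opposite ways, with 8 UMIs in high-share and 216 in low-share Müller glia of N350 but 11 and 0 in N354. *H2BC4* had no UMI in N354, and *HAS1* and *UBALD1* had 2 and 1. *EPHA3* had levels of 0.0959 and 0.228 in N350 and of 0.173 and 0.320 in N354, so it was lower with the high share in both dogs. Of the genes called by edgeR, 121 of 149 and 39 of 45 had the same direction in both dogs. None of the 8 Müller glia markers was called in either direction, but the gate required at least 4 of 6 of them in every cell, so this is no independent test. The gate genes took 4.29% of the UMIs of high-share and 5.95% of those of low-share Müller glia in N350, and 5.18% and 6.16% in N354.

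*SPATA7* and *PTPN21*, the genes whose deletion the study describes in affected dogs, were both low in these normal Müller glia. *SPATA7* had a level of 0.188 in N350 and 0.367 in N354, from 162 and 131 UMIs, against 0.552 and 0.943 in other cells. *PTPN21* had a level of 0.217 and 0.177, from 187 and 63 UMIs, against 0.565 and 0.601. Both were more than 2-fold lower in Müller glia than in other cells in each dog, but by less than 2-fold relative to the median gene.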

How the data were processed

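Neuroretina of 2 dogs was profiled by droplet-based RNA sequencing of single cells. The authors counted UMIs with Cell Ranger (version 6.0.2 per the file headers) and deposited raw counts per gene and cell, without normalization. The study names canFam6 as its genome, but the feature lists of the dogs differ, and mitochondrial genes carry the prefix MT- in N354 only. In N354, 17 names that occur more than once were summed, and 4169 genes have an identifier in place of a name. From 8900 and 4392 barcodes, 5 with under 200 genes were left out in each dog. The lowest depth was 500 UMIs in both.

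Müller glia were gated as described, with no mitochondrial limit and no doublets removed, because Scrublet in scanpy 1.11.5 marked 0 and 0.0912% of cells by its own threshold and so did not work. *WFDC2* *FGG* glia had at least 3 of *WFDC2*, *FGG*, *CAPS* and *RAMP1* and were not Müller glia. In cells of the rod gate *GNAT1*, *GNGT1*, *SAG* and *PDE6G* made up at least 2% of the UMIs, with fewer than 2 Müller gate genes and fewer than 2 of *ARR3*, *PDE6H* and *GNAT2*. Another gene planned for it was left out because only N350 lists it. UMIs were summed per dog and class and given per 10000 UMIs, with exact 95% intervals. Shares in cells thinned to 1000 UMIs are hypergeometric expectations. The tools were pandas 2.3.3 and numpy 2.4.6 with scipy 1.17.1 under Python 3.11.15.

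High-share and low-share Müller glia were tested with edgeR 4.0.16 (R 4.3.3; TMM, quasi-likelihood, Benjamini-Hochberg over all genes), with DESeq2 1.42.0 as an alternative. The dog pairs the sums because both come from 1 animal, and the deviations of the 2 sums of a dog from the means over dogs correlated at 0.93. The edgeR test was run on simulated data over 9101 genes, where it recovered 184 (92%) of 200 genes given a log2 fold of 2, with 7 false calls. The simulation gave all genes the same dispersion and unchanged genes the same mean share in both sets of cells. It does not cover smaller folds or RNA from other cells, so it cannot tell how many of the real calls are false. No other comparison has a p-value.

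The cells, gene lists and tests were chosen with earlier results of these data known. Named genes were the gate genes and markers, list members, the 15 with the highest fold outside the lists, the 10 with the highest level, the 10 with the lowest fold, 5 in each direction between the dogs, 10 in each direction between high and low mitochondrial share and the 10 most variable. Markers of other cell types were listed as well, and some listed genes are not reported here. *SPATA7* and *PTPN21* were added because the study is about them.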

Additional observations from a re-analysis of the deposited data

How the results depend on the processing

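The results rest on 2 animals counted on different annotations, on a gate that uses the contrast it describes, and on sums whose intervals cover counting error only. At the depth of Müller glia a count of 0 allows a level of 0.00348 in N350 and 0.00842 in N354. The number of Müller glia fell to 260 in N350 and 25 in N354 with at most 5% mitochondrial UMIs, to 272 in N354 with at most 10%, and to 25 in N354 with less than 5% on MT- names. Genes higher and lower in both dogs numbered 138 and 811 with at most 5% mitochondrial UMIs, where fewer genes could be tested. The shares moved as well, to 3.14% and 18.5% of 4388 genes from 6.35% and 15.2%. Under the MT- limit the genes numbered 148 (3.32%) and 742 (16.6%). They numbered 217 and 337 with a pseudocount of 0.5 and 924 and 509 with the median fold set to 1. A pseudocount of 0.02 gave 2238 lower genes, and the rod gate as reference gave 957 higher ones. In the dogs taken alone, 603 to 734 genes were higher and 1585 to 1790 lower. Of 201 named genes past 2-fold, the direction turned in a dog for 5 of 114 that could be tested with at most 5% mitochondrial UMIs (*PDE6H*, *GPI*, *PFKM*, *PGK1* and *HSPH1*), for 5 of 115 under the MT- limit and for 12 of 174 against the rod gate (*WFDC2*, *TRPM1*, *PDE6H*, *SLC4A4*, *APOA1*, *HSPB1*, *RTN1*, *ARR3*, *CAPS*, *OPN1SW*, *GNGT2* and *PCP2*), for *CAPS* against other cells without *WFDC2* *FGG* glia, an alternative chosen after seeing the data, and for 0 under the other alternatives. Past 2-fold there remained 125 of 201 with a pseudocount of 0.5, 173 of 201 with the mean over cells, 178 of 201 with the median fold set to 1, 156 of 174 against the rod gate, 183 of 199 against other cells without it (*ABAT*, *S100A1*, *SELENOW* and *CTNNA1* among those lost), 99 of 114 with at most 5% mitochondrial UMIs, 184 of 195 with at most 10% and 102 of 115 under the MT- limit.

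Between high-share and low-share Müller glia, the calls were 0 higher and 0 lower with no replicate block, that is without the pairing by dog, and 8 and 0 by DESeq2. Terciles in place of the median split, highest against lowest, gave 96 and 76, and leaving out the 4% highest Scrublet scores with their ties gave 25 lower genes. Leaving out a dog leaves no test, and 123 to 147 of the higher and 39 to 45 of the lower genes had the same direction in the remaining dog. RLE size factors, no filter on low counts and cells with at least 1000 UMIs stayed within 1.5 times of both counts. Why the calls change was not tested.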
